A study of Mus musculus with 15 samples.

Results

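Chemokine and chemokine receptor genes were described in whole ovaries of mice aged 6 or 12 months, with and without the drug canagliflozin. Members were chosen by symbol, taking the CC and CXC ligands (Ccl, Cxcl), their receptors (Ccr, Cxcr), the atypical receptors (Ackr) and the pair Cx3cl1 and Cx3cr1. Of the 24656 genes listed, 47 had such a symbol, and the 39 with a mean of at least 3 over the 15 libraries were kept. Just inside that limit stood Ccl3 with a mean of 3.14, and just outside it Ccl4 with 2.88. The 39 were 18 CC ligands, 7 CXC ligands, Cx3cl1, Cx3cr1, 5 CC receptors, 3 CXC receptors and 4 atypical receptors.

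The first group was 12 months old and received canagliflozin from 6 to 12 months of age (5 mice), the second was untreated and 12 months old (5 mice), and the third was untreated and 6 months old (5 mice). All were UM-HET3 females, an outcrossed stock in which littermates differ genetically, and no transgene or deletion is named for any group. Canagliflozin blocks SGLT2, the glucose transporter of the kidney tubule. Each library held polyadenylated RNA of a single mouse, and the protocol names 1 ovary per mouse for both 12-month groups. How the 6-month ovaries were extracted, and whether in the same batch, is not stated. In comparisons with the 6-month group, a difference in handling therefore cannot be told apart from age. Values are the authors' reads per gene divided by a size factor per library, called normalised reads here. Recovered depth averaged 11.2 ± 1.85 M reads in canagliflozin libraries, 12.2 ± 0.720 M in 12-month controls and 12.5 ± 0.729 M in 6-month controls (M, 1000000 reads; SD, n = 5 each), with canagliflozin replicate 2 lowest at 8.47 M. The tissue label was met by ovarian markers. The summed level of 10 granulosa and theca genes ran from 103551 to 216819 in canagliflozin libraries, from 107721 to 184246 in 12-month controls and from 116218 to 170073 in 6-month controls. Haemoglobin and other red cell genes set 12-month control replicate 3 apart, where 5 such genes summed to 18087, the highest of all libraries, and that library was also the lowest of its group for 16 of 32 chemokine and receptor genes.

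Chemokines are small secreted proteins that bind to glycans on cell surfaces and draw white blood cells along their gradient through receptors coupled to inhibitory G proteins. Atypical receptors bind the same ligands without that signal and take them up or carry them across cells. In the ovary, chemokines are known for bringing macrophages and other white cells to follicles, to the site of ovulation and to the regressing corpus luteum.

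The most abundant ligand is encoded by near-identical copies, and their sequences are shown because they limit how its reads can be assigned. Ccl21a (ENSMUSG00000094686) and Ccl21b (ENSMUSG00000095675) lie on chromosome 4 and encode the forms known in mice as CCL21-Ser and CCL21-Leu, ligands of CCR7 that guide dendritic cells and T cells. Their coding sequences in GENCODE M21 (assembly GRCm38) are 402 bases each and were 99.5% identical, with the substitutions T84A and C194T from Ccl21a to Ccl21b, counted from 1 at the first coding base. Bases 54 to 224 of each coding sequence are printed 5′ to 3′, with the differing bases in capitals.
Ccl21a: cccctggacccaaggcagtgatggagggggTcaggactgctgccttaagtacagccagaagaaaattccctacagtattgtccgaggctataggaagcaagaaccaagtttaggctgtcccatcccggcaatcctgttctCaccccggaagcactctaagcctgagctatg
Ccl21b: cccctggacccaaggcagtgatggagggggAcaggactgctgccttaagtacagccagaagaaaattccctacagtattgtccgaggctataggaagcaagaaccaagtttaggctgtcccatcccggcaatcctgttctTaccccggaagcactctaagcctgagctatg
A further copy, Gm13304, had 0 coding differences from Ccl21b in that annotation, and 788 of its 788 words of 50 bases occurred in transcripts of another gene. Every 50-base word of the Ccl21b transcript also occurred in the transcripts of another gene, against 71.6% of words for Ccl21a, 52.0% for Ccl19, 45.0% for Ccl27a and 20.4% for Ackr1, which shares sequence with its neighbour Cadm3. Levels of these 5 genes and of Gm13304 are therefore uncertain. The way the authors assigned reads that match several genes is not given in the sources used here. Of the other members, 27 shared no word, and the rest shared at most 2.13%.

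Per length, the ovary's chemokine messages were dominated by a few ligands. Mean level over the 15 libraries, in normalised reads per 1000 exon bases, was 1475 for Ccl21a, 1163 for Ccl21b, 975 for Cxcl14, 214 for Cxcl12, 147 for Cxcr4 and 105 for Cxcl16. These were the 6 of 39 genes above 100 on that scale. The annotated Ccl21b transcript of 402 bases is coding sequence alone, against 870 bases for Ccl21a. The place of Ccl21b in this order depends on that length and on the assignment of shared reads. Cxcl14 is a chemokine of epithelia and stroma, Cxcl12 is the stromal ligand of CXCR4, and Cxcl16 is a membrane-bound ligand of CXCR6. Cx3cl1, the membrane-bound ligand fractalkine, followed at 74.0, Ackr3, which takes up CXCL12, at 54.4, and Cx3cr1, the fractalkine receptor of macrophages and monocytes, at 39.9 reads per 1000 bases. At the low end, 18 genes were under 10 on that scale, among them Ccr2 at 6.87 and Ccl28 at 2.66, and Ccr9, the receptor of CCL25, was lowest at 0.373. The plot of level per length shows this order for the 3 group means.

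**Figure D1:**
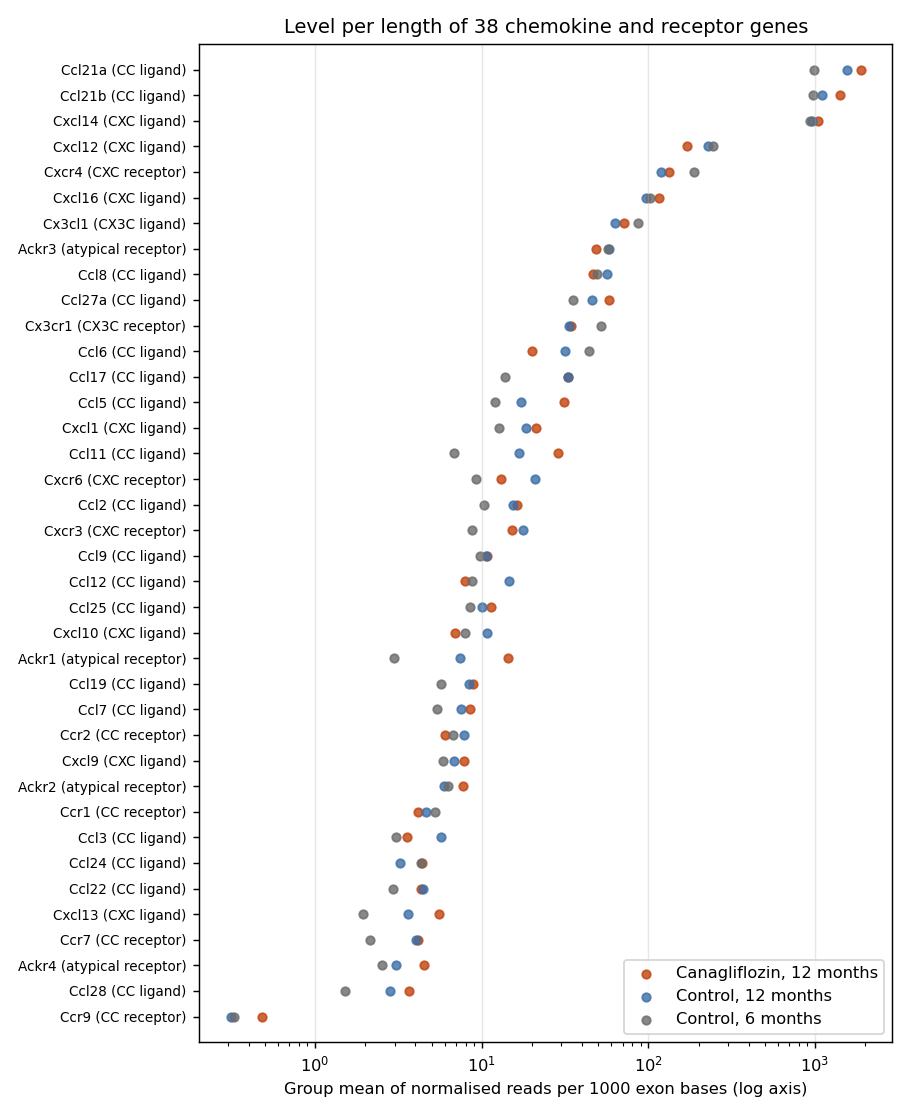
Mean level of 38 genes per 1000 exon bases (horizontal log axis, normalised reads) in canagliflozin ovaries, 12-month controls and 6-month controls; each point is the mean of 5 libraries. Ccl21a, Ccl21b and Cxcl14 stand near 1000 and most receptors under 10, and the 3 group means of a gene mostly lie closer together than the levels of different genes.

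The first comparison asked whether canagliflozin ovaries differed from untreated ovaries of the same age. Of the 32 genes that passed the filter on low values (at least 10 normalised reads in at least 5 libraries), 0 rose and 0 fell in canagliflozin ovaries against 12-month controls (limma, Benjamini-Hochberg adjusted p under 0.05), where 0.00569% of all 17569 genes tested, a single gene, passed. The unadjusted p was under 0.05 for 2 of the 32, or 6.25%, against 9.2% of all genes tested, and 0 were called by edgeR, DESeq2 or voom on recovered reads. The log2 fold change was positive for 21 of 32, with a median of 0.15, against 49.6% of all genes and a median of 0.00. Among 21 ligands 16 were positive, and among 11 receptors 5. The count of positive ligands was also 16 of 21 in each of the other comparisons. It includes Ccl19, Ccl21a, Ccl21b and Ccl27a, whose levels are uncertain because of shared sequence. For 0 of 32 did the 5 canagliflozin values all lie above or all lie below the 5 control values, against 1.05% of all genes, 0.586% higher and 0.467% lower. All fold changes were computed after adding 1 to each value before taking log2, so the change of a gene with few reads is understated.

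Ccr2 (ENSMUSG00000049103), the CCL2 receptor that monocytes use to leave the bone marrow, had 32.9, 50.7, 31.6, 41.6 and 46.0 reads in canagliflozin ovaries, against 59.2, 42.7, 47.7, 50.2 and 66.0 in 12-month controls and 41.7, 39.1, 52.6, 57.7 and 36.7 in 6-month controls. Of the canagliflozin libraries 4 of 5 were under the 12-month median, and the log2 fold change was -0.39 ± 0.19 (SE; limma adjusted p = 0.552). Ccr1, another CC receptor, had a log2 fold change of -0.22. Bulk RNA cannot tell fewer cells of a type from less RNA per cell.

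Among the ligands, Ccl6 (ENSMUSG00000018927), a CC ligand of mouse macrophages and other myeloid cells, had 41.4, 32.8, 25.7, 40.6 and 40.0 reads in canagliflozin ovaries, against 79.2, 49.5, 34.0, 54.4 and 67.7 in 12-month controls. Only control replicate 3 fell inside the canagliflozin range. Means were 36.1 ± 6.79 in canagliflozin ovaries and 57.0 ± 17.4 in 12-month controls (SD, n = 5 each), with a log2 fold change of -0.61 ± 0.28 (SE; limma adjusted p = 0.539). Cxcl10, an interferon-induced ligand of CXCR3, had 12.2, 19.4, 21.7, 14.9 and 10.01 reads in canagliflozin ovaries, against 30.6, 11.6, 11.01, 30.8 and 37.3 in 12-month controls and 24.6, 14.5, 15.6, 18.7 and 15.9 in 6-month controls. The 12-month controls split into 3 libraries above 30 and 2 near 11, and the log2 fold change was -0.49 ± 0.34 (SE; limma adjusted p = 0.662). Ackr3 had 131, 165, 165, 178 and 168 reads in canagliflozin ovaries, against 169, 224, 210, 169 and 195 in 12-month controls and 177, 191, 143, 253 and 195 in 6-month controls. All canagliflozin values were under the 12-month median, in the gene that had the smallest spread of the 32 within both of these groups, and the log2 fold change was -0.26 ± 0.14 (SE; limma adjusted p = 0.594). Ackr2, a scavenger of inflammatory CC ligands, had 17.0, 29.8, 20.7, 19.8 and 34.0 reads in canagliflozin ovaries, against 20.05, 26.2, 16.5, 12.3 and 17.4 in 12-month controls and 34.1, 19.1, 7.79, 18.7 and 18.8 in 6-month controls. The groups overlapped throughout, and the log2 fold change was 0.37 ± 0.32 (SE) against 12-month controls (limma adjusted p = 0.720).

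Macrophages are known to carry Ccl6 and Ccr2 messages, and their markers are given beside these genes. Of 14 macrophage and monocyte markers, 14 passed the filter, 0 were called in canagliflozin ovaries against 12-month controls and 11 had negative estimates, with a median log2 fold change of -0.30. Their summed level ran from 2596 to 5113 in canagliflozin ovaries, from 2457 to 6160 in 12-month controls and from 4229 to 7408 in 6-month controls. The defining markers Adgre1 and Csf1r were above 0 in every library. Adgre1, which encodes the macrophage antigen F4/80, ran from 30.4 to 52.1 in canagliflozin ovaries, from 33.0 to 116 in 12-month controls and from 151 to 202 in 6-month controls. The part of these markers in the values of Ccl6 and Ccr2 was not tested.

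The second comparison asked how untreated ovaries differed between 12 and 6 months. Again 0 of 32 genes rose and 0 fell by the same test, where 12.4% of all genes tested passed, 5.4% higher and 7.01% lower at 12 months. The unadjusted p was under 0.05 for 7 of 32, or 21.9%, against 27.4% of all genes. DESeq2 on recovered reads called 2 of the 32, Cx3cl1 and Cxcr4, both lower at 12 months, and edgeR with TMM called 0. Estimates were positive for 23 of 32, with a median log2 fold change of 0.17, against 50.5% of all genes and a median of 0.00.

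Cx3cl1, Cx3cr1, Cxcr4 and Cxcl12 had lower means at 12 months, and none of these differences passed the limma test. Cx3cl1 (ENSMUSG00000031778) had 249, 197, 247, 282 and 269 normalised reads in 12-month controls and 264, 302, 278, 348 and 216 in canagliflozin ovaries, against 373, 391, 421, 271 and 254 in 6-month controls. Of the 6-month controls, 3 stood above every 12-month control and replicates 4 and 5 lay within their range. The mean was 249 ± 32.4 in 12-month controls and 342 ± 74.7 in 6-month controls (SD, n = 5 each), with a log2 fold change of -0.44 ± 0.16 (SE; limma adjusted p = 0.0850). Of 15 fits that left out 1 library, Cx3cl1 passed in 1, that without 6-month control replicate 5 (log2 fold change -0.54, limma adjusted p = 0.0418). Across those 15 fits the limma adjusted p of Cx3cl1 reached 0.190. Its receptor Cx3cr1 (ENSMUSG00000052336) had 214, 118, 93.6, 115 and 214 reads in 12-month controls and 162, 113, 186, 211 and 99.1 in canagliflozin ovaries, against 264, 236, 306, 247 and 117 in 6-month controls. All but replicate 5 of the 6-month controls were above both other groups, and the log2 fold change between control ages was -0.64 ± 0.30 (SE; limma adjusted p = 0.172). Of the 14 macrophage and monocyte markers, 4 had positive and 10 negative estimates. By the test 0 rose and 2 fell at 12 months, Adgre1 with a log2 fold change of -1.31 and Csf1r with -1.06. Both calls held in 27 of 27 other fits. The part of these markers in the Cx3cr1 values was not tested.

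Cxcr4 (ENSMUSG00000045382), the CXCL12 receptor, had 284, 214, 154, 232 and 196 reads in 12-month controls and 145, 313, 211, 330 and 199 in canagliflozin ovaries, against 339, 383, 464, 228 and 289 in 6-month controls. Of the 6-month controls 4 of 5 were above every 12-month control, and the log2 fold change was -0.64 ± 0.23 (SE; limma adjusted p = 0.0852). It passed the threshold in 1 of 15 fits that left out 1 library, that without 6-month control replicate 4 (log2 fold change -0.78, limma adjusted p = 0.0445). Across those 15 fits the limma adjusted p of Cxcr4 reached 0.193. Its ligand Cxcl12 had 3141, 1363, 482, 3435 and 868 reads in 12-month controls and 1296, 1125, 450, 784 and 3314 in canagliflozin ovaries, against 2209, 1757, 1430, 2941 and 1694 in 6-month controls. Libraries of 1 group differed more than 7-fold at 12 months in both treatment arms, and the log2 fold change between ages was -0.43 ± 0.57 (SE; limma adjusted p = 0.667). Of 6 fibroblast and stroma markers 6 were tested and 2, Col1a1 and Col1a2, fell at 12 months. Their summed level ran from 14707 to 23848 in canagliflozin ovaries, from 15108 to 30409 in 12-month controls and from 32941 to 44131 in 6-month controls, and their part in the Cxcl12 values was not tested. Cxcl14 stood at 1906 ± 887 in canagliflozin ovaries, 1742 ± 394 in 12-month controls and 1696 ± 259 in 6-month controls (SD, n = 5 each), and its log2 fold change between ages was 0.02 ± 0.26 (SE; limma adjusted p = 0.971). In single libraries it had 1432, 1920.4, 2022, 3271 and 885 reads in canagliflozin ovaries, 2269, 1635, 1265, 1544 and 1996 in 12-month controls and 1955, 1992, 1433, 1591 and 1511 in 6-month controls, so that canagliflozin libraries held both the highest and the lowest value.

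Cxcr3 and Cxcr6 had higher means at 12 months, and neither difference passed the limma test. Cxcr3 (ENSMUSG00000050232), the receptor of CXCL9 and CXCL10 on activated T and NK cells, had 23.9, 19.4, 15.6, 31.8 and 63.4 reads in 12-month controls and 15.8, 35.8, 24.7, 31.7 and 23.0 in canagliflozin ovaries, against 19.0, 14.5, 8.77, 18.7 and 14.9 in 6-month controls. All 5 of the 12-month controls were above the 6-month median, and the log2 fold change was 0.85 ± 0.34 (SE; limma adjusted p = 0.118). Cxcr6 (ENSMUSG00000048521), the receptor of CXCL16, had 21.96, 23.3, 18.4, 52.3 and 84.2 reads in 12-month controls and 13.4, 35.8, 29.6, 16.9 and 31.0 in canagliflozin ovaries, against 24.6, 23.6, 7.79, 22.04 and 10.9 in 6-month controls. Replicates 4 and 5 of the 12-month controls stood apart from the other 3, which lay within the 6-month range, and the log2 fold change was 1.00 ± 0.44 (SE; limma adjusted p = 0.149). Of 15 T and NK markers 7 passed the filter, and 2, Cd3g and Txk, rose at 12 months. The summed level of all 15 ran from 168 to 411 in canagliflozin ovaries, from 215 to 468 in 12-month controls and from 143 to 199 in 6-month controls. Their part in the Cxcr3 and Cxcr6 values was not tested.

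Ackr1 (ENSMUSG00000037872), the Duffy antigen of red cells and venule endothelium, was the tested member whose control ages did not overlap. It had 7.64, 14.6, 10.1, 11.3 and 8.68 reads in 12-month controls, against 1.90, 5.45, 1.95, 6.78 and 4.96 in 6-month controls. This was 1 of 32 genes, where 13.7% of all genes tested did not overlap between these groups, 5.63% higher and 8.07% lower at 12 months. In canagliflozin ovaries it had 14.6, 5.96, 68.1, 4.96 and 7.01 reads, of which replicate 3 was far above the rest. The log2 fold change between ages was 1.22 ± 0.56 (SE; limma adjusted p = 0.166). The limma adjusted p was 0.0456 when canagliflozin replicate 3 was left out of the shared estimate of spread. Only that 1 of 15 fits without 1 library passed, and the limma adjusted p reached 0.298 among them. Blood vessel markers were 8 of 8 tested, with 1, Cdh5, lower at 12 months. Their summed level ran from 4967 to 7845 in canagliflozin ovaries, from 5032 to 5922 in 12-month controls and from 5643 to 6426 in 6-month controls. Red cell genes summed to between 1457 and 7442 in canagliflozin ovaries, between 168 and 18087 in 12-month controls and between 738 and 2319 in 6-month controls, and the part of either list in the Ackr1 values was not tested.

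**Figure D2:**
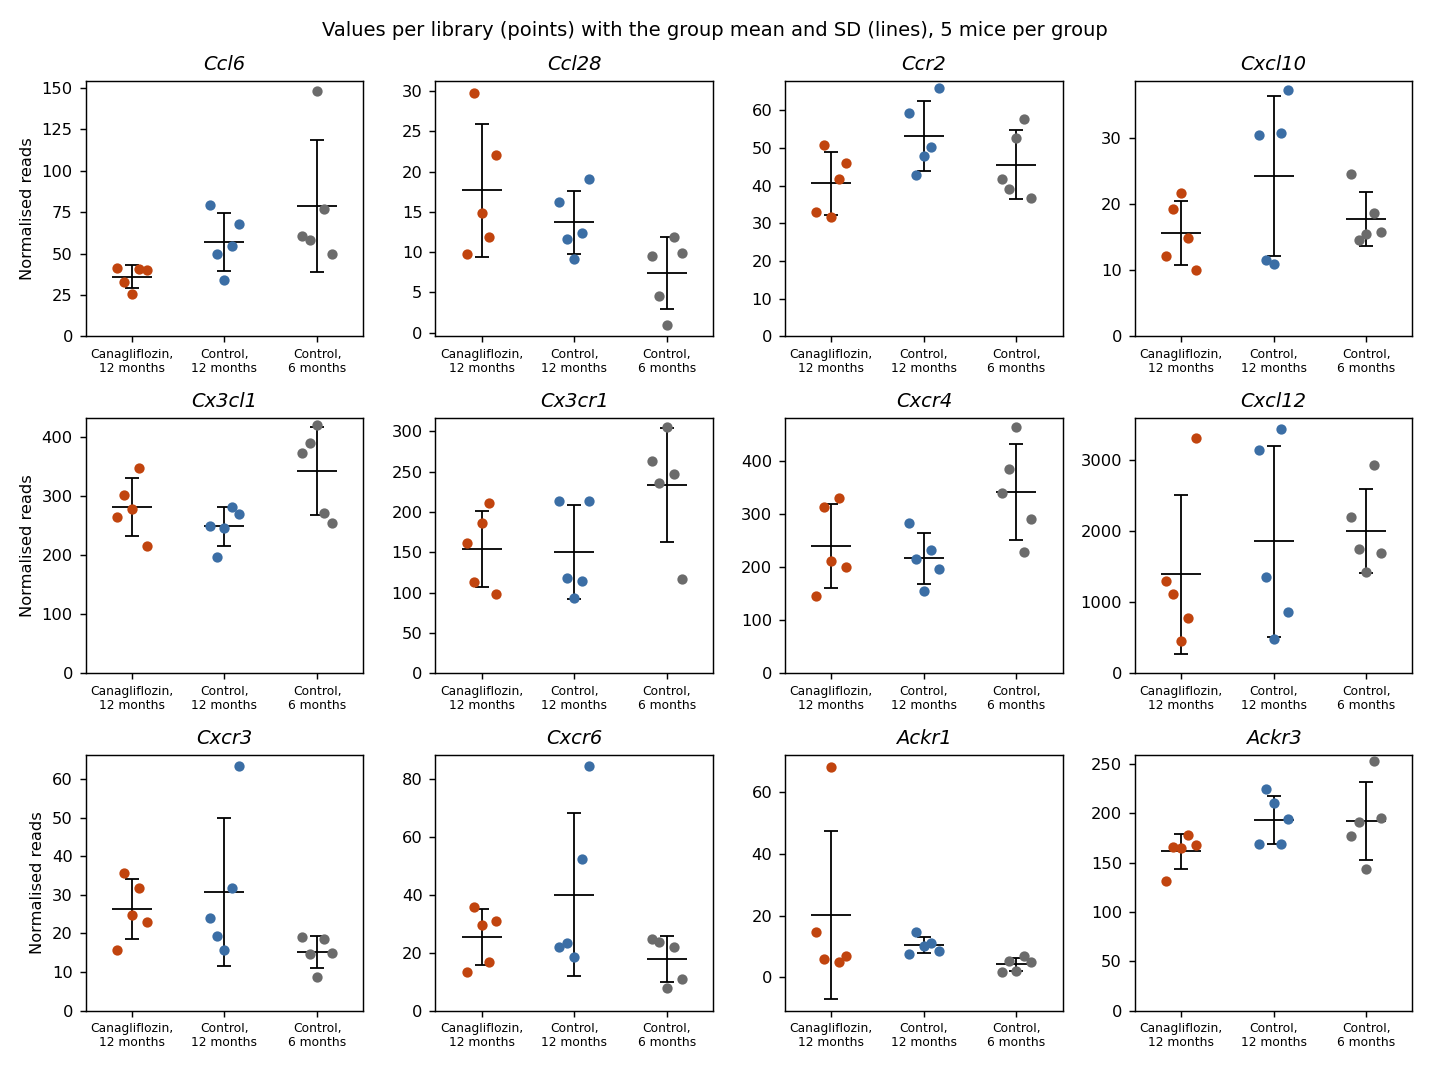
Normalised reads of 12 named genes in each library (vertical axis, linear), with canagliflozin ovaries at the left, 12-month controls in the middle and 6-month controls at the right; long bars are group means and whiskers SD, n = 5 each. The 5 canagliflozin values of Ccl6 lie between 25.7 and 41.4, under all 6-month controls, while Cxcl12 covers a wide range in both 12-month groups.

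The third comparison set canagliflozin ovaries against 6-month controls. It shares its libraries with the other comparisons, and age and treatment both differ, so their effects cannot be told apart in it. Of the 32 genes 1 rose and 2 fell, or 9.38%, where 28.4% of all genes tested passed, 13.5% higher and 14.9% lower. Estimates were positive for 21 of 32, with a median log2 fold change of 0.34, against 50.8% of all genes and a median of 0.01. Without canagliflozin replicate 2 and 12-month control replicate 3 together, 4 genes were called, among them Ccl11, Ccl6 and Cxcr4.

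Ccl6 fell. It had 60.7, 58.1, 148, 77.2 and 49.6 reads in 6-month controls, and all 5 canagliflozin values given above were lower. Mean levels were 36.1 ± 6.79 in canagliflozin ovaries and 78.7 ± 40.0 in 6-month controls (SD, n = 5 each), with a log2 fold change of -1.01 ± 0.28 (SE; limma adjusted p = 0.0148). This was 1 of 32 genes without overlap, where 18.5% of all genes did not overlap, 8.05% higher and 10.4% lower. The call held in 28 of 28 other settings, and without 6-month control replicate 3, the highest library, the log2 fold change was -0.75. In single libraries 22 to 41 reads lay behind the canagliflozin values and 50 to 152 behind the 6-month values. Of 14 macrophage and monocyte markers, 3 had positive and 11 negative estimates here. The test called 0 higher and 4 lower, where 13.5% of all genes tested were higher and 14.9% lower. The 4 lower markers were Adgre1, Csf1r, the receptor of the macrophage growth factor CSF1, Mrc1 and Cd163. The part of these markers in the Ccl6 values was not tested.

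Ccl28 (ENSMUSG00000074715) rose. It is a ligand of CCR10 and CCR3 known for drawing IgA-producing plasma cells to mucosa, and it had 9.74, 29.8, 14.8, 11.9 and 22.02 reads in canagliflozin ovaries, against 9.48, 4.54, 0.974, 11.9 and 9.91 in 6-month controls. The groups overlapped, and each 6-month value rested on 1 to 14 reads. It averaged 17.6 ± 8.22 in canagliflozin ovaries and 7.36 ± 4.47 in 6-month controls (SD, n = 5 each), with a log2 fold change of 1.32 ± 0.46 (SE; limma adjusted p = 0.0423). Untreated 12-month ovaries had 16.2, 11.6, 9.18, 12.3 and 19.1 reads, a log2 fold change of 1.04 ± 0.46 (SE) against 6-month controls (limma adjusted p = 0.155). The call of Ccl28 against 6-month controls was lost in 8 of 15 fits that left out 1 library, which were canagliflozin replicates 2, 3 and 5, 12-month control replicates 1, 2 and 4 and 6-month control replicates 2 and 3. Without 6-month control replicate 3, which had a single Ccl28 read, the log2 fold change was 0.86 (limma adjusted p = 0.0904). Of 10 B and plasma cell markers 7 passed the filter, 4 of them (Igkc, Igha, Jchain and Blk) higher in canagliflozin ovaries than in 6-month controls and the same 4 higher in 12-month than in 6-month controls. Their summed level ran from 656 to 1073 in canagliflozin ovaries, from 392 to 1237 in 12-month controls and from 141 to 189 in 6-month controls, and their part in the Ccl28 values was not tested.

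**Figure D3:**
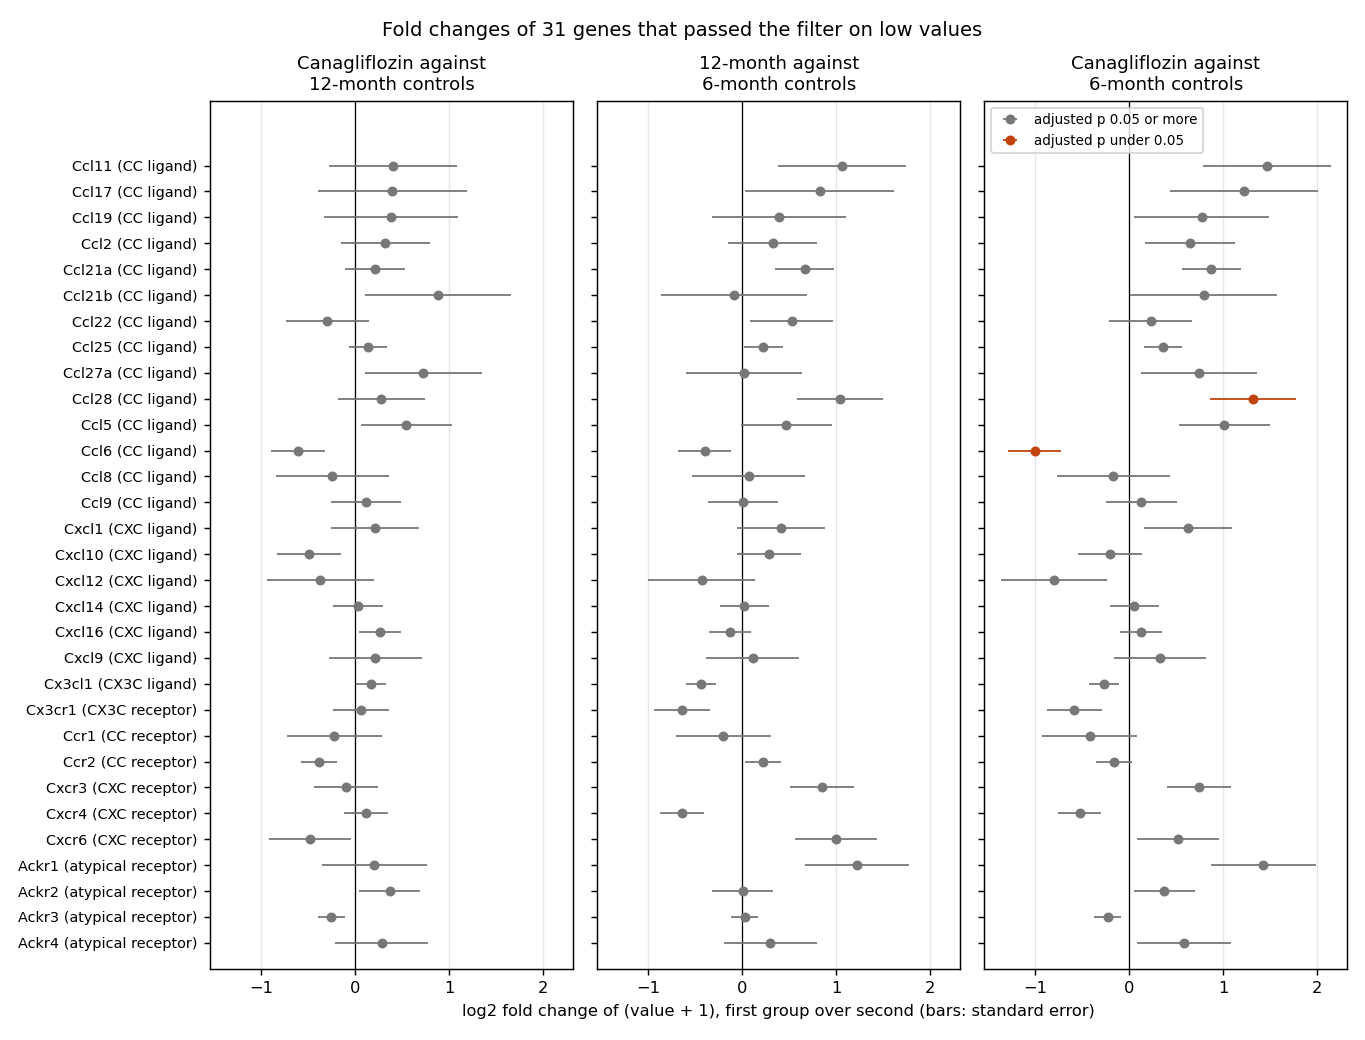
Log2 fold change of 31 tested genes (points; bars are SE) in canagliflozin ovaries against 12-month controls, in 12-month against 6-month controls and in canagliflozin ovaries against 6-month controls, ordered by role. The points that pass the test are Ccl6 and Ccl28 in the right panel, and Ccl6 has a negative estimate in all 3 panels.

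Ccl21a was just over the threshold in that comparison, and its copies are given together. Ccl21a had 1244, 1251, 1409, 3234 and 1059 reads in canagliflozin ovaries, against 1176, 1974, 1162, 1639 and 822 in 12-month controls and 442, 839, 887, 1061 and 1044 in 6-month controls. Its log2 fold change was 0.87 ± 0.32 (SE) in canagliflozin ovaries against 6-month controls (limma adjusted p = 0.0522) and 0.21 ± 0.32 against 12-month controls (limma adjusted p = 0.847). The third copy, Gm13304, which the symbol rule does not cover and which was singled out after its values were seen, rose in canagliflozin ovaries against 6-month controls by 2.90 ± 0.69 on the log2 scale (SE; limma adjusted p = 0.00634). It had 251, 76.0, 51.3, 182 and 19.0 reads in canagliflozin ovaries, against 20.05, 95.1, 238, 43.1 and 24.3 in 12-month controls and 14.2, 7.27, 7.79, 11.02 and 10.9 in 6-month controls. No 6-month library reached any library of the 12-month groups. Of all genes tested, 18.5% did not overlap between canagliflozin ovaries and 6-month controls, 8.05% higher. Between the control ages 13.7% did not overlap, 5.63% higher at 12 months. The call of Gm13304 in canagliflozin ovaries against 6-month controls held in 27 of 27 other fits. Its call in 12-month against 6-month controls (log2 fold change 2.35, limma adjusted p = 0.0376) held in 14 of 27. All of these fits took the authors' assignment of reads to the copies as given, so they do not test it. Summed over the 3 copies, levels ran from 1638 to 3980 in canagliflozin ovaries, from 929 to 3242 in 12-month controls and from 765 to 1897 in 6-month controls, and the groups overlapped. Gm21541, the gene that shared the most words with each of the 3 in the annotation, is not in this sum. Of 6 lymphatic endothelium markers, whose cells are known to make CCL21, 6 passed the filter, 1 (Pdpn) fell in canagliflozin ovaries against 6-month controls and 1 (Flt4) fell at 12 months. Their summed level ran from 1042 to 1239.5 in canagliflozin ovaries, from 1101 to 1383 in 12-month controls and from 1198 to 1668 in 6-month controls, and their part in the Ccl21a values was not tested.

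Ccl27a and Ccl21b spread widely between the mice of each group. Ccl27a (ENSMUSG00000073888), a skin chemokine that binds CCR10, had 170, 113, 48.3, 141 and 213 reads in canagliflozin ovaries, against 31.5, 210, 227, 46.1 and 31.3 in 12-month controls and 83.4, 35.4, 156, 101 and 44.6 in 6-month controls. Its 6 lowest libraries were at most 48.3 reads and the next was at 83.4. Ccl21b had 437, 953, 178, 564 and 723 reads in canagliflozin ovaries, against 147, 1173, 648, 153 and 82.5 in 12-month controls and 309, 97.2, 593, 825 and 131 in 6-month controls. Its 6 lowest libraries were at most 178 reads, the next was at 309, and they were the same 6 mice.

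Those 6 were canagliflozin replicate 3, 12-month control replicates 1, 4 and 5 and 6-month control replicates 2 and 5, that is 1, 3 and 2 of the 5 in each group. Ccl27a, Ccl21b, Gm13304, Ccl19 and Ccl21a lie in one stretch of chromosome 4 in the annotation, with predicted genes and pseudogenes between them. Of the genes in that stretch, Fam205a3, Fam205a4 and the pseudogene Gm17081 were listed at 0 in exactly these 6 libraries. Their ranges elsewhere were 2.97 to 22.9, 2.97 to 22.03 and 0.991 to 92.4 reads. Genes on either side of the stretch did not split the libraries in this way, and the 6 lowest libraries for Galt, Dnajb5 and Vcp shared 4, 2 and 3 with that set. Ccl21a shared 3, Ccl19 shared 4 and Gm13304 shared 2. Gm20878, at 2.91 to 24.6 reads, and Gm13306, at 1.49 to 19.7 reads, also lie in the stretch and shared 0. Gm20878 is the gene that shared the most words with Ccl27a, and the part of read assignment in these patterns was not tested. The animals' genotype at this stretch was not measured. The log2 fold change of Ccl27a in canagliflozin ovaries against 12-month controls, 0.73 ± 0.62 (SE; limma adjusted p = 0.714), is therefore given beside the unequal numbers of low libraries in those groups, 1 of 5 and 3 of 5. It ran from 0.42, without 12-month control replicate 5, to 1.13, without 12-month control replicate 3, when 1 library was left out. With edgeR on the 12 libraries whose size factor could be told from 1 it was 0.02.

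**Figure D4:**
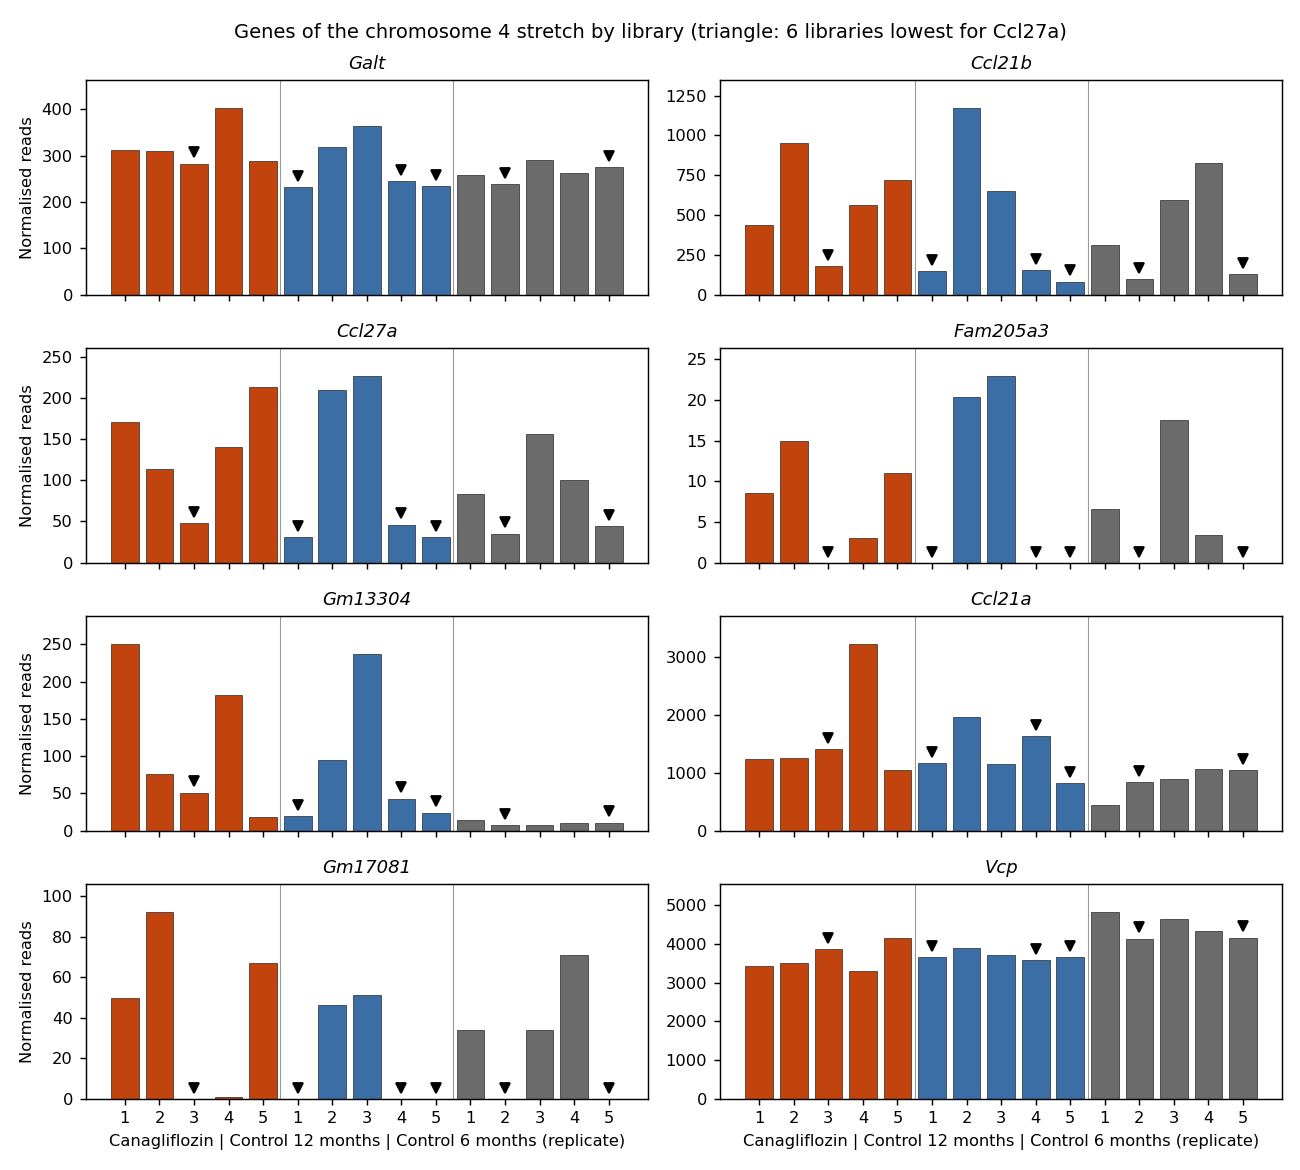
Normalised reads (vertical axis, linear) of 8 genes of the chromosome 4 stretch and its flanks in each library, with canagliflozin replicates at the left of each panel, then 12-month and 6-month controls; triangles mark the 6 libraries lowest for Ccl27a. Ccl27a, Ccl21b, Fam205a3 and Gm17081 are lowest in the same 6 libraries, at 0 for the last pair, while Galt and Vcp are not.

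The other members are given by counts. The inflammatory ligands Ccl2, Ccl5, Ccl8, Ccl9, Ccl11, Cxcl1 and Cxcl9 had group means from 7.40 (Ccl11, 6-month controls) to 39.4 reads (Cxcl1, canagliflozin ovaries), and 0 of the 7 were called in any comparison by limma on all 15 libraries. In canagliflozin ovaries against 6-month controls, DESeq2 and edgeR on recovered reads each called Ccl11 and Ccl5, both higher, limma called Ccl11 in the fit without 2 libraries described above, and limma called Ccl5 without canagliflozin replicate 5. Ccl11, the eosinophil attractant eotaxin, had the largest estimate of them, 1.46 ± 0.68 (SE) in canagliflozin ovaries against 6-month controls (limma adjusted p = 0.119). Its mean was 30.9 ± 33.9 reads in canagliflozin ovaries and 7.40 ± 3.79 in 6-month controls (SD, n = 5 each), and 2 of 5 canagliflozin libraries, at 86.4 and 40.6, carried the difference in means. Ccl5, the T-cell attractant RANTES, averaged 29.8 ± 20.7 reads in canagliflozin ovaries, 16.5 ± 6.41 in 12-month controls and 11.6 ± 3.63 in 6-month controls (SD, n = 5 each), with a log2 fold change of 1.01 ± 0.48 (SE) against 6-month controls (limma adjusted p = 0.130). Within-group spread was wide for the family, with a median SD on the log2 scale of 0.63 in canagliflozin ovaries, 0.65 in 12-month controls and 0.62 in 6-month controls, against 0.29 in canagliflozin ovaries, 0.25 in 12-month controls and 0.21 in 6-month controls for all genes tested.

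Of the 39, 7 did not reach the filter and were seen at a few reads only, Ccl3, Ccl7, Ccl12, Ccl24, Cxcl13, Ccr7 and Ccr9. Over 21 exact two-sided permutation tests of these genes, 1 gave an unadjusted p under 0.05. Ccr7, the CCL19 and CCL21 receptor of T cells and migrating dendritic cells, had 11.5, 5.82, 8.26, 7.18 and 6.95 reads in 12-month controls, against 3.79, 5.45, 3.90, 5.09 and 2.97 in 6-month controls. The groups did not overlap, so that the unadjusted p was 0.00794 in the exact permutation test, the smallest that 5 against 5 can give. Of the genes that passed the filter, 13.7% did not overlap between these groups, 5.63% higher at 12 months. In limma with the filter set at a mean of 3, the log2 fold change was 0.76 and the adjusted p over all genes 0.306. Canagliflozin ovaries had 4.87, 16.4, 14.8, 1.98 and 3.00 Ccr7 reads and overlapped with both control groups. With that filter, the limma adjusted p of these 7 genes ran from 0.232 to 0.914 over the 3 comparisons.

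Other genes of the chemokine pathway were read from 5 lists. In canagliflozin ovaries against 12-month controls 0 genes of any list were called. The smallest p in that comparison belonged to Pik3cg, the leukocyte PI3-kinase below chemokine receptors, at 42.9 ± 9.32 reads in canagliflozin ovaries and 58.5 ± 8.92 in 12-month controls (SD, n = 5 each; limma adjusted p = 0.484). Its regulatory subunit Pik3r5 stood at 35.2 ± 7.51 reads in canagliflozin ovaries and 57.1 ± 20.9 in 12-month controls (limma adjusted p = 0.498). Il1b, an inducer of chemokine transcription, stood at 35.1 ± 16.7 in canagliflozin ovaries and 18.9 ± 7.02 in 12-month controls (limma adjusted p = 0.514), and Dock8, a guanine exchange factor for leukocyte migration, at 237 ± 50.1 in canagliflozin ovaries and 311 ± 72.3 in 12-month controls (limma adjusted p = 0.515). These 4 genes overlapped between the groups. The protease Adam10, which sheds CX3CL1 and CXCL16, stood at 1198 ± 98.8 in canagliflozin ovaries and 1389.6 ± 133 in 12-month controls (limma adjusted p = 0.495). The other genes with the smallest p of their lists were the receptor Gpr35, the cytokine Mif, the NF-kappaB brake Tnfaip3, the adhesion kinase Ptk2b and the heparan sulphate enzyme Ndst1, with log2 fold changes of -0.66, 0.31, -0.47, 0.39 and -0.27 and limma adjusted p from 0.534 to 0.631.

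Between 12 and 6 months, 1 to 4 genes of each list passed, where 12.4% of all genes tested did, 5.4% higher and 7.01% lower. Of 8 family genes outside the symbol rule 1 fell, Cmklr1, the chemerin receptor of macrophages, at 86.9 ± 23.8 reads in 12-month controls and 172 ± 41.4 in 6-month controls. Of 17 genes of G protein signalling and receptor arrest 2 rose and 2 fell. The arrestin Arrb1 (974 ± 126 reads at 12 months and 1468 ± 110 at 6 months) and the kinase Grk6 fell, while the kinase Grk3 (484 ± 139 at 12 months and 237 ± 75.5 at 6 months) and Rgs1, which shortens G protein signals in lymphocytes (32.5 ± 8.73 at 12 months and 12.3 ± 5.05 at 6 months), rose. Of 20 genes of leukocyte migration 0 rose and 3 fell, Tln1, the integrin-binding protein talin, Dock8 and Selp, the P-selectin of vessels and platelets. Of 14 inducers of chemokine transcription 1 fell, Nfkb2, and of 13 proteases and glycan enzymes 1 fell, Ndst1, which modifies the heparan sulphate that holds chemokines. The calls of Cmklr1, Arrb1, Grk3, Rgs1, Tln1 and Ndst1 held in 27 of 27 other fits, whereas those of Dock8, Grk6, Nfkb2 and Selp were lost in 6, 12, 13 and 16 of them. In canagliflozin ovaries against 6-month controls the family list had 0 higher and 1 lower, the signalling list 2 higher and 4 lower, and the migration list 0 higher and 4 lower, where 13.5% of all genes tested were higher and 14.9% lower. The inducers had 2 higher and 1 lower, and the proteases and glycan enzymes 1 higher and 3 lower. The higher genes were Grk3, Rgs1, Il1b, Ltb, a lymphotoxin, and Ext1, which builds heparan sulphate. The lower ones were Cmklr1 (72.4 ± 14.1 reads in canagliflozin ovaries), Arrb1, Grk6, Pik3r5, the inhibitory G protein Gnai3, Dock8, Tln1, the small GTPase Rap1b, the actin regulator Was, the TNF receptor Tnfrsf1a, Ndst1 and the matrix proteases Mmp2 and Mmp14, which also cut chemokines. Of these calls, Il1b was lost in 1 of 27 other fits, Gnai3 in 4, Was in 5, Ltb in 6 and Rap1b and Tnfrsf1a in 9 each, and the others held in all 27.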

How the data were processed

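One deposited table holds the signal of every gene, and the authors made it by scaling each library's reads with a single size factor, as its values show. The submitters' processing notes name Partek 11.0 and the mouse build mm39. Neither an aligner, a counter nor the normalization is given in the sources used here. At least 99.9911% of values in each library were whole reads within 0.1 of a read after division by the library's step, so reads were recovered for count tests. In 3 libraries the step was too close to 1 to be told from it. The labels' protocols give a read depth far below the recovered totals, and this was not resolved. A further 2 columns, without a sample name and empty, were not used. Within groups, no pair of libraries agreed within counting noise, as the same library sequenced again would. That check cannot tell samples of the same mouse from samples of different mice. Each library was taken as 1 replicate, as labelled.

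The test was limma 3.58.1 under R 4.3.3 (trend and robust options) on log2(value + 1), fitted to all 15 libraries together. A gene entered it with 10 or more normalised reads in 5 or more libraries. edgeR had been planned for counts, and limma replaced it because the values are not counts. Calls are Benjamini-Hochberg adjusted p under 0.05 over 17569 genes. edgeR 4.0.16, DESeq2 1.42.0 and voom were run on recovered reads as alternatives, beside other pseudocounts, filters, thresholds and each library left out. Members below the filter were compared gene by gene with two-sided exact permutation tests. The procedure was checked on simulated reads, with changed genes drawn from all genes tested. Of 50 genes raised 1.5-fold, 11 to 19 were called in a comparison, and of 50 raised 2-fold, 29 to 34. Many changes of that size would thus be missed, and the members spread more within groups than all genes tested. Exon lengths, gene order and coding sequences came from GENCODE M21 (GRCm38), and no coordinates were taken from it, since the builds differ. The members, the gene lists and the rule for named genes were chosen with earlier results of these data known. Members are given in every library where they were called in a comparison, had one of the 6 smallest p in canagliflozin against 12-month controls or in 12-month against 6-month controls, did not overlap between groups, or had one of the 2 highest means of their role. Of each other list, called genes or else the 2 with the smallest p are named. Of the members, 1 is in the counts but is not reported here by name. p-values measure the spread between single mice of a group.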

Additional observations from a re-analysis of the deposited data

Results flagged for a closer look

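In 6 of 96 groups of 5 libraries, 1 library stood apart from the other 4 (the gap to its nearest neighbour was over 0.71 of the group's range). For normally distributed values chance flags about 1 in 20 groups, and 6 of 96 is 6.25%. The rule was applied to normalised reads, which need not be normally distributed, so that rate is no test of these flags. Each flagged library was the highest of its group. Ccl6 in 6-month control replicate 3 was at 148 reads, with the other 4 at 49.6 to 77.2, and the fall of Ccl6 in canagliflozin ovaries against 6-month controls was called without that library too. In the same library Ccl19, a CCR7 ligand, was at 14.6 reads, with the others at 0.948 to 3.97. Canagliflozin replicate 3 had 68.1 reads of Ackr1, with the others at 4.96 to 14.6, and 28.6 reads of Ccr1, a receptor of CCL3 and CCL5, with the others at 4.00 to 9.91. Ccl21a was at 3234 reads in canagliflozin replicate 4, with the others at 1059 to 1409. Ccl17, a CCR4 ligand, was at 54.2 reads in 12-month control replicate 3, with the others at 0.970 to 13.0.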

How the results depend on the processing

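Of 420 recomputed gene results (15 genes and comparisons under 28 alternatives), 391 kept direction and side of the threshold, 19 lost the call, 10 gained it and 0 reversed. The 28 include a threshold of 0.1 on the main fit, where a call could not be lost and a direction could not change. In canagliflozin ovaries against 12-month controls 0 members were called under all 28. In 12-month against 6-month controls, where the count was 0, it was 2 with DESeq2, 2 in a fit of only these groups (Ackr1 and Cxcr4), 2 at an adjusted p under 0.1, 1 with edgeR on the 12 libraries whose size factor could be told from 1, and 0 to 1 when a library was left out. In canagliflozin ovaries against 6-month controls, where it was 3, it was 7 with DESeq2 and 7 with edgeR (both adding Ackr1, Ccl11, Ccl21a and Ccl5), 6 at an adjusted p under 0.1, and 1 to 4 when a library was left out, with Ccl6 alone called without 6-month control replicate 2 or 3. The call of Ccl28 was lost in 12 of the 28 alternatives. Beside the fits that left out 1 library, these include voom (adjusted p = 0.0614), the fit of only these groups (0.0779) and edgeR on 12 libraries (0.0974).

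For the pathway lists, the 3 migration genes that fell with age became 1 with edgeR on 12 libraries and 1 to 3 when a library was left out. The 4 called in canagliflozin ovaries against 6-month controls became 7 without canagliflozin replicate 2 and 12-month control replicate 3 together, and 2 to 5 when 1 library was left out. The 1 inducer called with age became 2 with DESeq2, 0 with edgeR on 12 libraries, 0 with no filter on low values, 0 without those 2 libraries together and 0 to 1 when a library was left out. The 3 inducers called in canagliflozin ovaries against 6-month controls became 0 with edgeR on 12 libraries and 1 to 4 when a library was left out. The 1 protease and glycan gene called with age became 2 with DESeq2, 2 at an adjusted p under 0.1 and 1 to 2 when a library was left out. Among the cell markers, Cdh5, Txk, Flt4, Blk and Col1a1 lost their calls with age in 10, 7, 7, 7 and 13 of 27 fits. The fits on 12 libraries and without 2 libraries together were chosen after seeing the data. The cause of these differences was not tested. Low counts limit Ccl28, with 1 to 22 reads in a library, and the members below the filter.

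Libraries of the same replicate number showed no strong pairing. The correlation of their deviations from the group means ran from -0.298 to 0.249 over 15 pairs, with 3 over 0.1. For 0 of 15 libraries was its own number the best match in both other groups. Unpaired libraries would seldom meet that rule, but this count alone cannot exclude a weak pairing. With the replicate number as a block, 0 members were called in canagliflozin ovaries against 12-month controls, 0 between ages and 4 in canagliflozin ovaries against 6-month controls (among them Ccl21a, Ccl28 and Ccl6), and 0 inducers between ages.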
